A study of Mus musculus with 6 samples.

Results

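The SLC7 and SLC3 genes followed here encode amino acid exchangers and carriers of the plasma membrane, and their mRNA levels were measured in Neuro2a, a neuroblastoma cell line of the mouse. The group was set by gene symbol and not by a cutoff on measured values, but it was chosen with earlier results of these data known. It comprised 10 of the 24391 genes in the count table: the heavy chains Slc3a1 and Slc3a2, the light chains Slc7a5, Slc7a6, Slc7a7, Slc7a8 and Slc7a11, and the cationic carriers Slc7a1, Slc7a2 and Slc7a3. Cells given vehicle (control, 3 libraries) were compared with cells given 5 mM D-serine (3 libraries). Both groups were grown in D-MEM with 10% fetal bovine serum and then moved for 18 h to a medium that the labels write as D-MEM(-SG), also with 10% serum. D-serine, the enantiomer of the L-serine used in proteins, acts in brain on NMDA receptors together with glutamate.

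The light chains of this family carry out the transport, but reach the cell surface only together with a heavy chain, to which a disulfide bridge links them. Slc3a2 (CD98, 4F2hc) is the heavy chain of most tissues, and Slc3a1 (rBAT) that of kidney tubule and intestine. The exchangers bring in an amino acid only in return for another that leaves the cell, so they depend on carriers that load the cell with exchangeable amino acids. The cationic carriers need no heavy chain and take up arginine, lysine and ornithine. Several genes of the family are known targets of ATF4, a transcription factor made when amino acids run short.

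Libraries held from 32518483 to 40024265 counts. Of the 24391 genes, 13366 were expressed highly enough to be tested. In the edgeR quasi-likelihood test, 1302 of these (9.74%) passed an adjusted p of 0.05, with 4.90% lower and 4.84% higher with D-serine, and the median log2 fold change over all tested genes was 0.0053. Upper quartile scaling changed the division from 655 lower and 647 higher genes to 412 lower and 914 higher, and scaling by library totals to 412 lower and 944 higher. D-serine replicate 1 stood apart from the other libraries in that its longer genes had lower values: the slope of its deviation from the gene means on log2 exonic length was -0.0685 in log2 CPM (CPM, read counts normalised to library size). The slope was 0.0076 and -0.0047 in D-serine replicates 2 and 3 and 0.0344, 0.0198 and 0.0114 in control replicates 1 to 3. Every D-serine slope was thus below every control slope, also without D-serine replicate 1. Of 14 markers of neuroblastoma, 12 were tested, among them Hand2 and Gata3, while the neurofilament genes Nefl and Nefm were at or near 0 counts. The summed level of the 14 markers was 1780 to 1900 CPM in control and 1900 to 2040 CPM with D-serine. The summed level of 5 fibroblast markers was 5.70 to 6.09 CPM in control and 4.61 to 6.90 CPM with D-serine, and those of 5 macrophage, 5 glial, 4 endothelial and 4 epithelial markers were at most 4.71 CPM in any library, with Lum, Adgre1, Olig2, Aqp4, Kdr and Krt14 at 0 counts throughout. In these bulk samples, fewer cells of a type and less RNA per cell cannot be told apart.

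Of the 10 genes, 8 passed the filter on low counts, and 4 of these fell with D-serine: the heavy chain Slc3a2, the cystine carrier Slc7a11 and the cationic carriers Slc7a1 and Slc7a3. No member rose, at an adjusted or an unadjusted p under 0.05 in edgeR, nor in DESeq2 or limma-voom. Slc7a3 fell by 9.63%, Slc3a2 fell by 15.9%, Slc7a1 fell by 19.0% and Slc7a11 fell by 20.1%. The order of the last 3 was not stable: without D-serine replicate 1 the log2 fold change was -0.28 for Slc3a2, -0.22 for Slc7a1 and -0.23 for Slc7a11, and with each library's trend on gene length removed it was -0.25, -0.20 and -0.19. The background for a decrease is 4.90% of all tested genes, and 12.4% of the 2736 tested genes with a mean of at least 100 CPM, a level that 6 of the members reached, 4 of which fell. In 6 of the 8 tested members every D-serine library was below every control library, whereas 16.6% of all tested genes had this order and 32.9% were without overlap in either direction. Of the 8, 7 had a log2 fold change below 0, as did 48.5% of all tested genes, and 4 (Slc3a2, Slc7a1, Slc7a11 and the barely detected Slc3a1) differed by over 0.2 on the log2 scale, as did 27.9%. These shares of order, sign and size cover tested genes of every level and were not taken at 100 CPM or more. At that level 339 of the 408 genes that passed were lower, so the shares may differ there. The median log2 fold change of the 8 tested members was -0.20. The number of members that fell was 0 when control replicate 2 was left out (5 at an unadjusted p under 0.05) and 1 when control replicate 1 was left out, where 68 and 125 of all tested genes passed.

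Levels are compared between genes as RPKM, CPM per kilobase of the deposited exonic length. Slc7a5 was the most abundant of the 10 genes at 603 ± 19.8 RPKM in control (SD, n = 3), a level at or above that of 99.4% of the tested genes. Slc3a2 followed at 387 ± 9.87 RPKM, then Slc7a1 at 130 ± 1.41, Slc7a3 at 78.2 ± 2.67, Slc7a6 at 57.1 ± 0.765, Slc7a11 at 26.9 ± 0.591 and Slc7a7 at 3.17 ± 0.139 RPKM. Neighbours among these 7 genes did not overlap in any library, and the order was the same with D-serine. Slc3a1, at 0.259 ± 0.091 RPKM, and the untested Slc7a8 and Slc7a2, at 0.0134 ± 0.013 and 0.0046 ± 0.0079 RPKM, were at the edge of detection, and Slc7a8 and Slc7a2 overlapped.

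**Figure D1:**
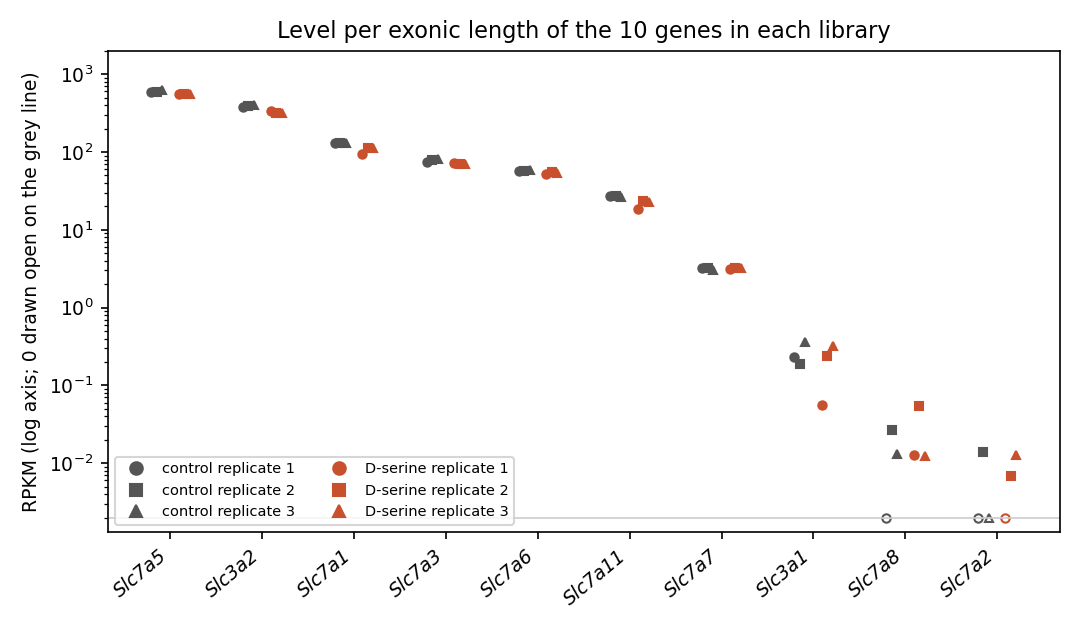
Level in RPKM (log axis) of the 10 genes in each of the 6 libraries, ordered by mean level, with control in grey and D-serine in orange. The genes span from about 603 RPKM for Slc7a5 in control to libraries with 0 counts for Slc7a8 and Slc7a2, which are drawn as open symbols on the grey line.

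Slc3a2, the heavy chain that carries most light chains to the surface, had the smallest p of the group. Its level was 1116, 1142 and 1174 CPM in control replicates 1 to 3 and 997, 951 and 937 CPM in D-serine replicates 1 to 3. All 3 D-serine libraries were below the lowest control, and D-serine replicate 1 was the highest of them. The gene fell by 0.25 on the log2 scale (SE 0.0397, 95% interval -0.336 to -0.165, edgeR adjusted p = 0.0060). Its adjusted p was under 0.05 in 15 of 16 alternative analyses and 0.0501 without control replicate 2. In the deposited table Slc3a2 lies on chromosome 19, 8781372 to 8797859, minus strand. The other heavy chain, Slc3a1, had 17, 16 and 31 counts in control and 5, 20 and 30 with D-serine. Those groups overlapped, and the interval of its log2 fold change, -1.45 to 0.767, leaves a difference not detectable at this depth. Slc3a1 shares 606 exonic bases with Prepl on the opposite strand, whose counts were 1997 to 2752, so its few counts are uncertain.

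Slc7a5 (LAT1), the light chain that imports leucine and other large neutral amino acids, was at 2075, 2078 and 2197 CPM in control and 1932, 1977 and 1948 CPM with D-serine. Although the libraries did not overlap, the difference missed the threshold, with a log2 fold change of -0.12 (SE 0.0368, 95% interval -0.196 to -0.0372, edgeR adjusted p = 0.0619). Slc7a5 lies on chromosome 8, 124405046 to 124431586, minus strand. It passed in 6 of 16 alternatives, among them DESeq2 (adjusted p = 0.0312), limma-voom (0.0489) and the fit without D-serine replicate 1 (0.0234). Slc7a6 (y+LAT2), which exchanges cationic for neutral amino acids, was at 210, 213 and 216 CPM in control and 196, 205 and 200 CPM with D-serine. Its log2 fold change was -0.086 (95% interval -0.174 to 0.0021, edgeR adjusted p = 0.187). Slc7a7 (y+LAT1), the related exchanger of kidney, gut and macrophages, was at 8.18, 8.12 and 7.55 CPM in control and 7.83, 8.05 and 7.99 CPM with D-serine. Its groups overlapped, with a log2 fold change of 0.0021 (95% interval -0.209 to 0.213, edgeR adjusted p = 0.992), so a change of the size seen in Slc3a2 lies outside that interval on the lower side. Slc7a7 shares 228 exonic bases with Oxa1l on the opposite strand, so its count is uncertain. Slc7a8 (LAT2) was not tested, having 0, 4 and 2 counts in control and 2, 8 and 2 with D-serine.

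Slc7a11 (xCT), which imports cystine in exchange for glutamate and so supplies cysteine for glutathione, was at 248, 254 and 243 CPM in control and 171, 216 and 208 CPM with D-serine. No D-serine library reached the lowest control, and D-serine replicate 1 was the lowest by a wide gap. The log2 fold change was -0.32 (SE 0.0695, 95% interval -0.474 to -0.174, edgeR adjusted p = 0.0162). With an exonic length of 9227 bases it is the longest member, against a median of 2834.5 bases in tested genes. Without D-serine replicate 1 the log2 fold change was -0.23 (adjusted p = 0.000564), and with each library's trend on gene length removed it was -0.19 (adjusted p = 0.00157). It was past the threshold neither without control replicate 1 (0.0667) nor without control replicate 2 (0.0751). In the deposited table Slc7a11 lies on chromosome 3, 50168858 to 50247535, minus strand.

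Slc7a1 (CAT1), the widely expressed carrier of arginine and lysine, was at 931, 951 and 945 CPM in control and 674, 810 and 807 CPM with D-serine. Here too the groups did not overlap and D-serine replicate 1 was the lowest library. Slc7a1 has an exonic length of 7239 bases and lies, as deposited, on chromosome 5, 149138986 to 149211480, minus strand. It fell by 0.30 on the log2 scale (SE 0.0598, 95% interval -0.432 to -0.175, edgeR adjusted p = 0.0127), by 0.22 without D-serine replicate 1 (adjusted p = 0.000159) and by 0.20 with the length trend removed (0.000799). Leaving out control replicate 1 or 2 moved its adjusted p to 0.0557 or 0.0654. Slc7a3 (CAT3), a cationic carrier found mainly in brain, was at 182, 190 and 195 CPM in control and 174, 167 and 171 CPM with D-serine. Its decrease was small and close to the threshold, with a log2 fold change of -0.15 (SE 0.0433, 95% interval -0.239 to -0.0529, edgeR adjusted p = 0.0497). The gene lies on the X chromosome, 98274549 to 98280744, minus strand. Slc7a3 was past the threshold in 8 of 16 alternatives. Its adjusted p was 0.110 with upper quartile scaling and 0.0974 with library totals. It also missed the threshold without control replicate 1 (0.0863), 2 (0.174) or 3 (0.158) or D-serine replicate 2 (0.0948) or 3 (0.125). Slc7a2, the carrier of liver and activated macrophages, had 0, 4 and 0 counts in control and 0, 2 and 4 with D-serine and was not tested.

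**Figure D2:**
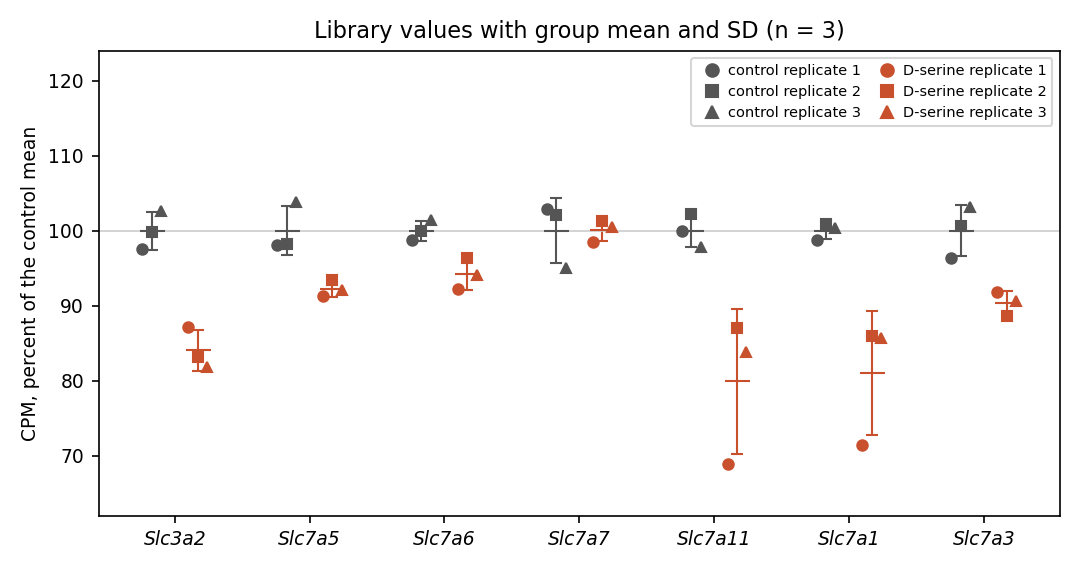
CPM of 7 genes in each library as a percentage of the mean of the 3 control libraries, with group mean and SD (n = 3; the axis starts above 0). In all genes shown except Slc7a7 the D-serine libraries lie below the controls, and D-serine replicate 1 is the lowest library of Slc7a11, Slc7a1, Slc7a6 and Slc7a5 but the highest D-serine library of Slc3a2 and Slc7a3.

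**Figure D3:**
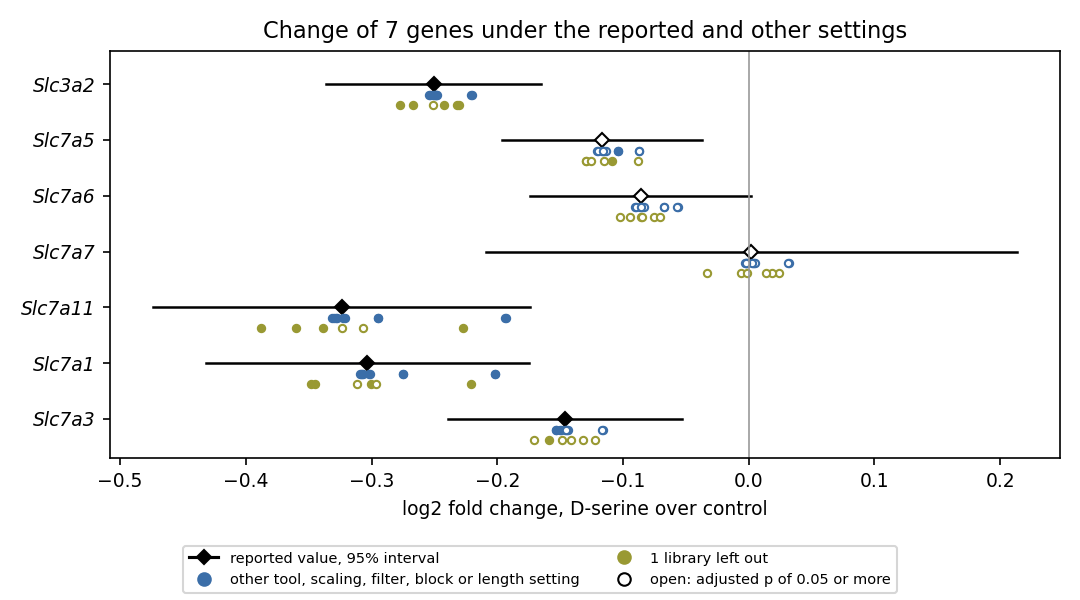
Log2 fold change of 7 genes, with the reported value and its 95% interval (diamond) above the values of 10 other tools, scalings, filters, block or length settings (blue) and of the 6 fits without 1 library (olive). Open symbols have an adjusted p of 0.05 or more, and Slc3a2, Slc7a11, Slc7a1 and Slc7a3 have filled diamonds.

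Because light chains share the heavy chain Slc3a2, the ratio of each tested light chain to Slc3a2 was taken within each library from counts per kilobase, a measure that library scaling does not touch. The summed level of the 4 tested light chains was 1.80, 1.76 and 1.80 times that of Slc3a2 in control and 1.852, 2.004 and 2.002 times with D-serine. Every D-serine library was above every control, with means of 1.78 ± 0.020 and 1.95 ± 0.087 (SD, n = 3 each). The exact permutation test, two-sided, gave p = 0.1, the lowest value open to 3 libraries against 3. The Slc7a5 ratio had the same order, with 1.57, 1.53 and 1.58 in control and 1.63, 1.75 and 1.75 with D-serine. The ratio of Slc7a6 was 0.146 to 0.149 in control and 0.156 to 0.171 with D-serine, and that of Slc7a7 was 0.0076 to 0.0087 and 0.0093 to 0.0101, both again without overlap. Slc3a2 itself fell, and of the other 13365 tested genes 60.1% had a ratio to Slc3a2 that was higher with D-serine without overlap, so this order is the usual one and is no result about these light chains. Each of these 3 ratios had an exact permutation p of 0.1, or 0.133 after Benjamini-Hochberg adjustment over the 4 light chains. The design cannot reach 0.05.

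The Slc7a11 ratio did not share this order. It was 0.0713, 0.0712 and 0.0663 in control and 0.0550, 0.0727 and 0.0713 with D-serine, so the groups overlapped (log2 difference -0.080, exact two-sided permutation p = 0.9). Its sign depended on D-serine replicate 1: the log2 difference was 0.050 without that library and 0.056 with the length trend removed. Among the tested light chains Slc7a5 made up 87.4% ± 0.36 of the summed level in control and 87.6% ± 0.41 with D-serine (SD, n = 3 each), whereas the share of Slc7a11 was 3.69% to 4.05% in control and 2.97% to 3.63% with D-serine, without overlap. The shares of Slc7a6, 8.28% ± 0.143 and 8.48% ± 0.0546, and of Slc7a7, 0.461% ± 0.0328 and 0.501% ± 0.0022, were higher with D-serine, also without overlap. Each of these 3 shares had an exact two-sided permutation p of 0.1. The share of Slc7a11 was 2.97% in D-serine replicate 1 and 3.63% and 3.56% in replicates 2 and 3, the latter close to the lowest control. How many genes would show such an order of shares was not counted, and 32.9% of all tested genes were without overlap in level. No share is given with the length trend removed. Among the cationic carriers Slc7a1 held 61.8% to 63.1% in control and 56.4% to 61.8% with D-serine. The highest D-serine library (61.77%) lay just under the lowest control (61.83%).

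**Figure D4:**
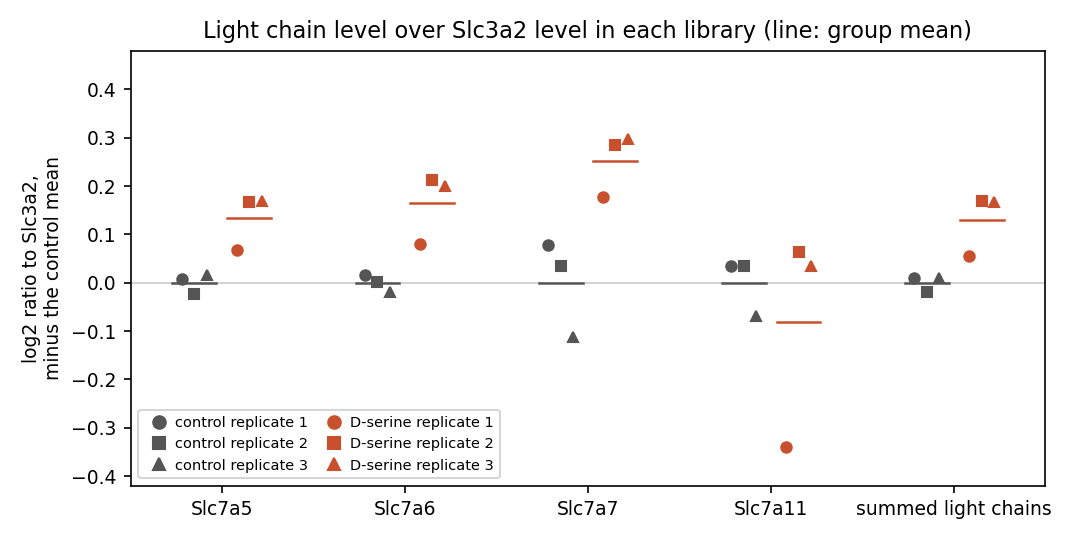
Log2 ratio of each tested light chain, and of their sum, to Slc3a2 within each library, minus the mean of the 3 control libraries, with lines at group means. The D-serine libraries lie above the controls for Slc7a5, Slc7a6, Slc7a7 and the sum, and for Slc7a11 they overlap, with D-serine replicate 1 as the lowest.

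The promoters of 7 members (Slc3a1, Slc3a2, Slc7a1, Slc7a6, Slc7a7, Slc7a8 and Slc7a11; 13 start sites) were searched for 2 motifs, and those of 3 genes that fell and 1 that did not pass are shown. Slc7a3, which also fell, and Slc7a2 and Slc7a5 had no entry in the promoter set used and were not searched. ATF4 is known to bind C/EBP-ATF response elements near several of these genes. The 250 bases before the RefSeq transcription start (build GRCm38.p6, minus strand for all 4 genes) are shown for Slc7a11 (chr3:50443614-50443863), for Slc7a7 (chr14:54417945-54418194), which did not pass the test, for Slc3a2 (chr19:8713898-8714147) and for Slc7a1 (chr5:148399905-148400154). Capitals mark each match to TGATGNAAN on either strand.
Slc7a11: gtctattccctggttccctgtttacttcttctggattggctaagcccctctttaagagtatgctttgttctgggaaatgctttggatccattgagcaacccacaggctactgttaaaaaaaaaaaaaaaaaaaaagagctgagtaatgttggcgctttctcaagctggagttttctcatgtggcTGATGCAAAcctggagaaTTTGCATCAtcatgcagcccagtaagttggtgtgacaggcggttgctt
Slc7a7: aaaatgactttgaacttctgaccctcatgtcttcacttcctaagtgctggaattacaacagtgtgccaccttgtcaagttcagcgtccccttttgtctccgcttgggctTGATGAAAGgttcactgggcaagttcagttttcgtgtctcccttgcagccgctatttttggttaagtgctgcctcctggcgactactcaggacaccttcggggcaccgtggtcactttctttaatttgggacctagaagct
Slc3a2: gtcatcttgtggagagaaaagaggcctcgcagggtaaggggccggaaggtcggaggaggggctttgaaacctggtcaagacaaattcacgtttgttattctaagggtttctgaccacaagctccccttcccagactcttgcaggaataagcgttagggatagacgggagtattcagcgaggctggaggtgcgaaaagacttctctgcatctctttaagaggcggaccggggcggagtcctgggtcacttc
Slc7a1: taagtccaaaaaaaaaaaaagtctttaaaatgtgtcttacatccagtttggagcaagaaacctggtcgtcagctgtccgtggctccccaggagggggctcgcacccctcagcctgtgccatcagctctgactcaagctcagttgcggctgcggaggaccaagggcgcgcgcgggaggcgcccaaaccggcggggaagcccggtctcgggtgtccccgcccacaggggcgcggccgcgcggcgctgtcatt
The Slc7a11 sequence holds the motif on both strands, with first bases at -66 and -48 from the start and the copies facing each other. The most upstream start of Slc7a7 has a match at -141 and another of its starts at -243, and the sequences shown for Slc3a2 and Slc7a1 have none in this window. The windows of Slc3a1, Slc7a6 and Slc7a8 also held no match before the start. Of 32851 promoters of 27025 genes in the table, 3.44% hold this motif in the 250 upstream bases. The antioxidant response element TGANNNNGC, the kind of site bound by Nfe2l2, matched in 35.2% of all such sequences. In Slc7a11 it matched at -97 and at -45, the latter overlapping the C/EBP-ATF match, and in Slc7a1 at -11. Members that did not pass held it too, Slc7a6 at -68, Slc3a1 at -140 and Slc7a7 at -123 from its most upstream start and at -12, -205 and -63 from others. These are matches of letters only.

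Of the 7 other SLC7 genes, 6 had at most 13 counts in any library. Slc7a10 (Asc-1), an exchanger of small neutral amino acids that accepts D-serine, had 0 counts in all 6 libraries, which allows at most 0.0745 to 0.0930 CPM (3 counts per library, counting error only). Slc7a12 and Slc7a13 also had 0 counts, Slc7a9, a light chain that pairs with Slc3a1, had at most 1, Slc7a4 at most 5 and Slc7a15 at most 13. Slc7a14, a lysosomal member, was the 1 gene of these 7 that was tested, averaging 262 ± 11.4 CPM in the controls and 242 ± 29.2 CPM in the D-serine libraries (SD, n = 3 each; log2 fold change -0.115, 95% interval -0.269 to 0.0388, edgeR adjusted p = 0.313).

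Carriers of other families that move the same neutral or cationic amino acids were followed as a list of 16 genes, of which 14 were tested. In edgeR 3 fell, 0 rose (also 0 at an unadjusted p under 0.05 and in DESeq2) and 11 did not pass, with a median log2 fold change of -0.082. At an unadjusted p under 0.05 in edgeR, 4 were lower, a cutoff that 3769 of all 13366 tested genes passed in either direction. Of all tested genes 4.90% fell and 4.84% rose, and 12.4% fell among those with a mean of at least 100 CPM. Slc38a2, a sodium-driven importer of glutamine and small neutral amino acids, fell by 0.33 on the log2 scale (SE 0.0387, adjusted p = 0.00145), and the neutral amino acid exchangers Slc1a4 and Slc1a5 fell by 0.29 (SE 0.0399, adjusted p = 0.00336) and 0.15 (SE 0.0404, adjusted p = 0.0363). Slc38a2 and Slc1a4 stayed past the threshold in all 16 alternatives and Slc1a5 in 8. Slc43a1 and Slc43a2, which carry large neutral amino acids without exchange, were at 1.47 ± 0.391 and 11.8 ± 0.248 CPM in control and did not pass (adjusted p = 0.742 and 0.324).

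Genes that use the amino acids brought in by these carriers were counted in the same way. Of 18 tested genes of cystine use and glutathione, 1 rose, 0 fell and 17 did not pass in edgeR, with a median log2 fold change of 0.062. At an unadjusted p under 0.05 in edgeR, 5 were higher and 1 lower, and in DESeq2 1 rose and 0 fell. That unadjusted cutoff was passed by 3769 of all 13366 tested genes in either direction. The share of all tested genes that rose was 4.84%, so 1 of 18 is near the usual share. Gpx4, the glutathione peroxidase of membrane lipids, averaged 231 ± 0.595 CPM in the controls and 277 ± 14.8 CPM in the D-serine libraries (SD, n = 3 each) and rose by 0.26 on the log2 scale (edgeR adjusted p = 0.00913). Its adjusted p was 0.0551 without control replicate 1 and 0.0579 without control replicate 2. Gclc and Gclm, the subunits of the enzyme that starts glutathione synthesis, had log2 fold changes of -0.12 (adjusted p = 0.116) and 0.0081 (0.945). Of 15 genes of arginine and ornithine use, 11 were tested and 0 passed in edgeR, against 2 at an unadjusted p under 0.05 (1 lower, 1 higher) and 0 in DESeq2. With 9.74% of all tested genes passing, 0 of 11 says little about this list. Odc1, which makes the polyamine putrescine, averaged 688 ± 13.8 CPM in the controls and 738 ± 26.6 CPM in the D-serine libraries (edgeR adjusted p = 0.126).

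The list on ATF4 and the amino acid response had 20 genes (Chac1 is also in the cystine list), 19 of them tested, with a median log2 fold change of -0.081. In edgeR 3 fell, the serine synthesis enzyme Psat1, the transcription factor Cebpb and the alanine aminotransferase Gpt2, with log2 fold changes of -0.16 (adjusted p = 0.0279), -0.26 (0.0190) and -0.18 (0.0262). The background for a decrease was 4.90% of all tested genes, and 12.4% of those with a mean of at least 100 CPM. In edgeR 0 rose. At an unadjusted p under 0.05 in edgeR, 8 genes of the list were lower and 4 higher, and in DESeq2 4 fell and 1 rose. Of all 13366 genes tested in edgeR, 3769 had an unadjusted p under 0.05 in either direction. DESeq2 gave 905 lower and 685 higher genes over the whole table. Atf4 itself averaged 1041 ± 16.7 CPM in the controls and 1169 ± 90.5 CPM in the D-serine libraries, each of which was above every control (log2 fold change 0.17, edgeR adjusted p = 0.0527). That order was held by 16.2% of all tested genes. The number of genes in this list that fell was 10 with the length trend removed, 8 without D-serine replicate 1, and 0 when any 1 of the 3 controls, or D-serine replicate 3, was left out. Over all tested genes, 917 fell with the length trend removed and 916 without D-serine replicate 1. Without control replicate 1, 2 or 3 the number was 45, 21 or 200, and without D-serine replicate 3 it was 136.

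For 4 members the genes with the most similar profile over the 6 libraries were found among 4242 tested genes with a mean of at least 20 CPM and a range of at least 0.2 on the log2 scale, by the root mean square difference of centred log2 CPM. For Slc3a2 these were Rsrc1 (0.0166), Rhox2g (0.0179) and Tle4 (0.0219), where the library range of Slc3a2 itself was 0.326. For Slc7a1 they were Dopey2 (0.0134), Lamc1 (0.0221) and Tbl1x (0.0235), and for Slc7a5 they included Rnf216 (0.0147) and Pik3cb (0.0165). For Slc7a11 they were Tnrc18 (0.0169), Pcnt (0.0228) and Med13l (0.0246). The exonic lengths of those nearest to Slc7a11 were 8361, 9530 and 9295 bases, beside its own 9227, and of those nearest to Slc7a1 7455, 7622 and 2302 bases, beside its own 7239. Those nearest to Slc3a2 had 3232, 800 and 4883 bases, beside its own 2958. Rnf216 and Pik3cb had 4671 and 4854 bases, beside 3513 in Slc7a5. The part that gene length or D-serine replicate 1 has in the size of these decreases was not tested beyond the values given.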

How the data were processed

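Poly(A) RNA of 6 Neuro2a samples was extracted with Trizol and made into TruSeq Stranded mRNA libraries, per the labels' protocols. The authors deposited raw counts per gene with the exonic length of each gene, in the column layout of featureCounts, per the file headers. The submitters' processing notes name bcl2fastq, Trim Galore, HISAT2, featureCounts, Subread and DESeq2, and the builds GRCm38 and mm10. The strand setting of the counting and its handling of multimapping reads are not given in the sources used here. None of the 10 members has the start that RefSeq gives it in GRCm38.p6, so positions are printed as deposited, with no build. Columns named vehicle were taken as the control samples of the same number.

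The deposited counts were tested with edgeR 4.0.16 in R 4.3.3 (filterByExpr, TMM scaling, quasi-likelihood F test, no covariate, two-sided, Benjamini-Hochberg over all 13366 tested genes, threshold 0.05). SE is the size of the log2 fold change over the square root of F, and 95% intervals use the fit's degrees of freedom. The labels do not say whether libraries came from separate cultures, so p-values measure the spread between these samples, which may be technical. The test was checked on simulated data. The 16 alternatives were DESeq2 1.42.0, voom in limma 3.58.1, 3 other scalings, 2 other filters, a block for replicate number, each library's length trend removed (natural spline, 5 degrees of freedom) with and without the block, and leaving out each library. Named genes were all members, list genes past the threshold (at most 6 a list, by p), Slc7a10 and the 3 most alike of 4 members, leaving out symbols of the Gm and Rik kinds; 1 of these is not reported here. Others (Slc7a4, Slc7a9, Slc7a12 to Slc7a15, Slc43a1, Slc43a2, Gclc, Gclm, Odc1 and Atf4) were chosen after their values were seen. The members and lists were chosen with earlier results of these data known.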

Additional observations from a re-analysis of the deposited data

How the results depend on the processing

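Slc3a2, Slc7a1, Slc7a3, Slc7a5, Slc7a6 and Slc7a11 kept a negative log2 fold change in all 16 alternatives. The log2 fold change of Slc7a7 changed sign with DESeq2 (-0.0023), DESeq2 size factors (-0.0013) and the length trend removed (-0.0031), also with the block (-0.0025), and ran from -0.033 to 0.024 when 1 library was left out. That of Slc3a1 ran from -0.84 to 0.11, with a positive value without D-serine replicate 1. Over the same fits the log2 fold change ran from -0.28 to -0.23 for Slc3a2, -0.35 to -0.22 for Slc7a1, -0.17 to -0.12 for Slc7a3, -0.13 to -0.088 for Slc7a5 and -0.39 to -0.23 for Slc7a11. Slc7a3 was past the threshold no longer under upper quartile scaling (-0.12), library totals (-0.12) or the replicate block (-0.15, adjusted p = 0.122). Slc7a5 passed with DESeq2 (-0.12), limma-voom (-0.12), no filter (-0.12) and the length trend removed without (-0.10) and with (-0.10) the block. The difference of the log2 ratio of Slc7a11 to Slc3a2 ran from -0.15 to 0.050 when 1 library was left out and was 0.056 with the length trend removed.

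Leaving out 1 library gave 0 to 5 members and 68 to 1699 of all tested genes past the threshold, and removing the length trend 2037 genes. The cause was not tested. With the replicate block 298 genes and 3 members passed, and 0 genes of the ATF4 list fell (5 at an unadjusted p under 0.05 in edgeR, 4 by DESeq2 without the block). The deviations of libraries of the same number from their group means had correlations of -0.127, 0.0123 and -0.0191. The highest correlations were 0.142 (control replicate 3 with D-serine replicate 1) and 0.124 (control replicate 1 with D-serine replicate 2). Deviations from a mean of 3 libraries per group depend on each other, so these values cannot tell whether the number pairs the libraries. In the ATF4 list 1 gene fell under upper quartile scaling and 10 with the length trend removed, without and with the block. Over all tested genes, 412 fell under upper quartile scaling, and 917 and 829 with the length trend removed, without and with the block. Genes of the ATF4 list that rose were 1 with DESeq2, upper quartile scaling and library totals, 2 without a filter, 2 with the length trend removed and 1 when the block was added. In the cystine list 2 rose under upper quartile scaling, library totals and the length trend removed, without and with the block, and 1 fell in those last fits. In the arginine list 1 rose with the length trend removed. When 1 library was left out, from 0 to 8 genes of the ATF4 list fell and 0 to 1 rose, 0 to 1 of the cystine list rose, 0 to 1 of the arginine list fell or rose, and 0 to 1 of the other carriers rose. Depth limited Slc3a1, Slc7a2 and Slc7a8, which had at most 31 counts in any library.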
